A study of Mus musculus with 38 samples.

Results

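The basement membrane of the parietal endoderm is built from a small set of proteins, and 10 genes of that set were followed here by name: the laminin chains Lama1, Lamb1 and Lamc1, the type IV collagen chains Col4a1 and Col4a2, the linker proteins Nid1, Nid2 and Hspg2, the collagen-binding protein Sparc and the protease Plat. The rule lists them by name and sets no threshold on a measured value, but the set was chosen with earlier results of these data known. All 10 were present in a table of 17 bulk RNA-seq libraries with 35976 genes, in a table of 8 bulk RNA-seq libraries with 37108 genes and in a single-cell count table with 20695 genes.

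A basement membrane is a thin extracellular sheet in which a laminin network binds to cell surface receptors and a type IV collagen network gives mechanical strength. Laminin is a trimer of an alpha, a beta and a gamma chain, type IV collagen is a triple helix, and nidogen and perlecan connect the networks. Parietal endoderm cells line the yolk sac cavity and secrete the thick Reichert's membrane, so that laminin, type IV collagen and SPARC are classic products of this cell type, and tissue plasminogen activator, encoded by Plat, is released by it as well.

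The cells were E13.5 mouse embryonic fibroblasts (MEFs) of a cross between the OG2 line, which carries an Oct4-GFP reporter, and 129S4/SvJaeJ mice, and they received reprogramming factors by pMXs retrovirus. JGES stands for Jdp2, Glis1, Esrrb and Sall4, JGE lacks Sall4, JGEO has Oct4 in its place, and JGESO has both. All cultures were kept in iCD3 medium, whose additions are bFGF, mLIF, the GSK3 inhibitor CHIR99021, Vitamin C, TV, the DOT1L inhibitor SGC0946, the ROCK inhibitor Y27632 and LSD1-HCL, and the BMP4+ cultures also received BMP4 at 10 ng/ml for up to 7 days. Further MEFs received wild-type SALL4 (SALL4-WT) or a form without its N-terminal 12 residues (SALL4-delN12), which recruit the NuRD repressor complex, as the single factor in iCD3 medium without BMP4. Bulk RNA-seq covered JGES at days 0, 1, 3, 5 and 7, the other factor sets at day 7 and both SALL4 forms at days 1, 5, 9 and 11, scRNA-seq covered JGES at day 7 with and without BMP4, ATAC-seq covered MEFs and both SALL4 forms at the same 4 days, and CUT&Tag for SALL4 and for acetylated histone H3 lysine 27 (H3K27ac) covered both forms at day 6.

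The day 7 JGES libraries stood in both bulk tables at a fixed ratio of 0.975 without and 0.978 with BMP4 and were counted as 1 sample each, and the scRNA-seq samples shared 2 cell barcodes. Each RNA-seq or ATAC-seq condition had 1 library and each CUT&Tag condition 1 peak list called on merged replicates, so that no difference between conditions could be set against a spread between replicates and no p-value is given. Bulk levels are in FPKM, which scales fragments by transcript length and by the number mapped, whose depth is unknown, and a difference is given as a difference of log2(FPKM + 1). A gene was called higher or lower when this difference was at least 1, among genes with at least 1 FPKM in either library. A gene that reached this minimum through 1 library alone could be called in 1 direction only. The cultures were mixtures of cells, and in a bulk library fewer cells of a type and less RNA per cell cannot be told apart.

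Lama1, which encodes the alpha chain of the laminin of early embryonic basement membranes, had the steepest course of the 10 genes. Its level was 0.56 FPKM at day 0 and then 1.48, 3.83, 12.9 and 30.1 FPKM at days 1, 3, 5 and 7 without BMP4. With BMP4 the same days gave 1.56, 3.92, 8.36 and 23.1 FPKM. Lama1 was thus higher at each later day in both series, by 4.32 without and 3.95 with BMP4 on the log2 scale between days 0 and 7, and BMP4+ lay below BMP4- at days 5 and 7 by less than the call threshold (differences of −0.58 and −0.37).

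The beta and gamma partners of the same trimer started high. Lamb1 was at 59.4 FPKM at day 0, at 34.0, 34.1, 40.1 and 82.4 FPKM over days 1 to 7 without BMP4, and at 48.1, 38.0, 44.7 and 95.5 FPKM with BMP4. Lamc1 ranged from 42.7 to 88.2 FPKM without BMP4 and from 48.8 to 83.2 FPKM with BMP4 when day 0 is counted in both. Both genes had their highest value at day 7, yet neither passed the call threshold against day 0 (0.47 and 0.84 without BMP4, 0.68 and 0.76 with it). The ratio of Lama1 to Lamb1 therefore went from 0.009 at day 0 to 0.365 at day 7 without BMP4 and to 0.241 with BMP4.

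Since one alpha chain enters each laminin trimer, the 5 alpha chain genes were also compared with each other in FPKM, which is per length. At day 0 Lama5, the widespread epithelial alpha chain, made up 66.5% of their summed level, Lama4, an alpha chain of mesenchymal and vascular basement membranes, 29.0%, and Lama1 1.07%. At day 3 without BMP4 the share of Lama5 was 92.7% and that of Lama4 3.04%. At day 7 Lama1 stood at 30.6% without BMP4 and at 22.7% with BMP4, beside Lama5 at 64.2% and 69.6%. Lama5 thus remained the main alpha chain of the JGES cultures at every day.

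The type IV collagen genes followed a U-shaped course. Col4a1 went from 165.2 FPKM at day 0 over 152, 93.6 and 53.3 to 106 FPKM at day 7 without BMP4, and over 121, 75.9 and 79.9 to 207 FPKM with BMP4. Col4a2 moved with it, with a lowest value of 36.9 FPKM at day 5 without BMP4 and of 64.8 FPKM at day 3 with BMP4, and the ratio of Col4a1 to Col4a2 stayed between 1.03 and 1.44 across these 9 libraries. At day 5 without BMP4 both chains had fallen (−1.61 and −1.97 against day 0). At day 7 both were higher with than without BMP4 by just under the threshold (0.95 and 0.93).

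Among the linkers Nid1 lay below and Nid2 above its day 0 level at each later day without BMP4. Nid1, the major nidogen, went from 100.8 FPKM at day 0 to 48.6, 19.3, 20.3 and 43.7 FPKM, while Nid2 went from 35.7 FPKM to 75.2, 96.7, 68.6 and 108.7 FPKM. With BMP4, Nid1 passed through 39.5, 31.5 and 49.0 FPKM to 126 FPKM at day 7, and Nid2 was at 88.3, 66.2, 58.5 and 61.6 FPKM. The ratio of Nid1 to Nid2 at day 7 was 0.402 without BMP4 and 2.04 with it. Hspg2, which encodes perlecan, a large heparan sulfate proteoglycan, was highest at day 0 with 207 FPKM and fell in both series, to 55.8 FPKM (−1.87) and 70.6 FPKM (−1.54) at day 7.

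Sparc, a secreted glycoprotein that binds collagen, separated the series most. Without BMP4 it went from 1157 FPKM at day 0 to 399.9, 114, 90.4 and 248 FPKM. With BMP4 it stayed at 517, 608, 519 and 805 FPKM. The difference between BMP4+ and BMP4- was 0.37 at day 1 and 2.41, 2.51 and 1.69 at days 3, 5 and 7. Plat, the plasminogen activator, was low throughout, from 5.30 to 15.4 FPKM, with 6.41 FPKM without and 12.5 FPKM with BMP4 at day 7 (0.86).

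**Figure D1:**
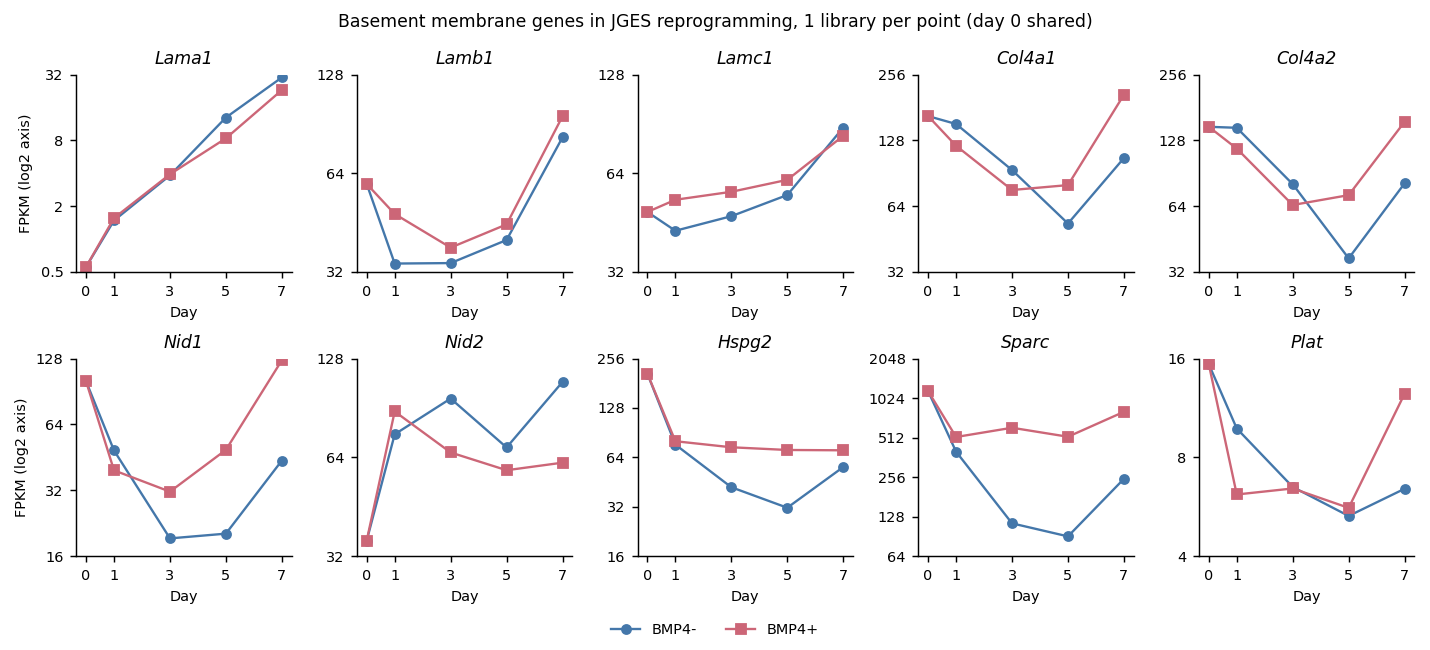
FPKM (log axis) of the 10 genes against day of JGES reprogramming without and with BMP4, with 1 library per point and day 0 shared by both lines. Lama1 climbs in both series, Sparc and Nid1 end higher with BMP4, and Nid2 ends lower with BMP4.

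The calls between BMP4+ and BMP4- were counted over the set. None of the 10 was called at day 1, where 3.75% of all tested genes were higher and 5.72% lower. Sparc was called higher at day 3, where 6.81% of genes were, Sparc, Nid1 and Hspg2 (1.15) at day 5, where 8.78% were, and Sparc and Nid1 (1.503) at day 7, where 10.3% were. None was called lower at days 3, 5 and 7, where 8.99%, 13.2% and 13.8% of genes were. The median difference of the 10 genes was 0.06, 0.09, 0.36 and 0.60 at the 4 days, beside −0.02, −0.09, −0.18 and −0.14 for all genes tested. After the libraries had been rescaled to their median ratio, 4 of 10 were higher at day 7, with Col4a1 at 1.07 and Col4a2 at 1.04.

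Against day 0, Lama1 and Nid2 (1.58) had risen by day 7 without BMP4, where 22.2% of genes were called higher, and Nid1, Hspg2, Sparc (−2.22) and Plat (−1.14) had fallen, where 10.4% were called lower. With BMP4 Lama1 had risen and Hspg2 had fallen, beside 17.5% and 9.47% of genes. At day 5, 6 of 10 were lower in each series, beside 10.0% of genes without and 9.85% with BMP4, and Lama1 (3.16 and 2.59) was the 1 member that was higher, beside 20.2% and 14.9%. The medians of the set at day 7 were −0.74 and 0.32, and those of all genes 0.26 and 0.06. The day 0 library is shared by both comparisons. Lama1 was under 1 FPKM at day 0 and could be called higher only. The summed level of the 12 fibroblast markers was 1559 FPKM at day 0 and 121 FPKM at day 7 without and 1077 FPKM with BMP4, with none higher and 9 lower without BMP4 and 2 higher and 7 lower with it. That of the pluripotency markers was 5.85 FPKM at day 0, 997 FPKM at day 7 without and 43.3 FPKM with BMP4. The part of these markers' cells in the differences from day 0 was not tested.

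Genes that make and export collagen were measured beside the set. Of 20 such genes tested at day 7, 8 were higher with BMP4 and none was lower, with a median of 0.76, among them the prolyl hydroxylase gene P4ha2 (10.4 FPKM without and 59.3 FPKM with BMP4), the peptidyl-prolyl isomerase gene Fkbp10 (14.6 and 60.1 FPKM) and the lysyl oxidase homologue Loxl2 (14.3 and 49.1 FPKM). Of 12 tested genes of the plasminogen system and of matrix proteases, 9 were higher and none lower, with a median of 2.13. Of 13 receptors for laminin and collagen IV tested 1 was called, the integrin subunit Itga2, listed at 0 without and at 1.41 FPKM with BMP4 and named after its value was seen. It passed the minimum of 1 FPKM through the BMP4+ library alone and could be called higher only.

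Markers of other cell types moved with this comparison. Of the 12 fibroblast markers 7 were higher with BMP4 and none lower, their summed level was 121 FPKM without and 1077 FPKM with BMP4, and Col1a1 was at 20.2 and 361 FPKM. Of the 10 visceral endoderm markers 9 were higher (sums of 37.6 and 165 FPKM), of the 15 primitive and parietal endoderm markers tested 9 were higher (sums of 189 and 666 FPKM for the whole list), and all 8 pluripotency markers were lower (sums of 997 and 43.3 FPKM). The visceral endoderm marker Apoa4 was listed at 0 at day 7 without BMP4. Earlier days went the same way in sum. At days 3 and 5 the fibroblast list was at 119 and 99.0 FPKM without and at 412 and 627 FPKM with BMP4. The primitive and parietal endoderm list was at 179 and 147 FPKM without and at 340 and 391 FPKM with BMP4. The part of these cell types in the differences of Sparc, Nid1 and Hspg2 was not tested.

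The scRNA-seq samples placed the set in cells. They held 11335 cells with BMP4 (median of 21205 UMIs per cell) and 8685 cells without (median of 12738), and the deposited label ParE covered 2372 cells (20.9%) and 142 cells (1.64%) of them. In the BMP4+ sample the ParE cells carried Gata4 at 78.3 CPM (UMIs summed over cells and scaled to a fixed total) against 1.58 CPM in all other cells, Sox17 at 263 against 11.7 CPM and Dab2 at 433 against 11.2 CPM. Of 14 tested primitive and parietal endoderm markers 10 were higher in ParE and none lower, but 7 of 8 tested visceral endoderm markers were higher too, such as Cubn at 107 against 2.21 CPM, and Thbd and Prdm1 were near 0 in ParE (0.54 and 0.57 CPM). The label ParE is used here for these cells as deposited, and since the cell labels came from the same expression values, ParE against other cells is a description.

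Lama1 was the gene most concentrated in ParE. Its level in the BMP4+ sample was 213 CPM in ParE (Poisson 95% interval of 209.8 to 217), 21.6 CPM in endothelial cells, 20.4 CPM in Placenta-like cells and 11.4 CPM in the Intermediate state. In the BMP4- sample it was 186 CPM in ParE (167 to 207), 4.63 CPM in endothelial cells, 4.73 CPM in the Intermediate state and 3.57 CPM in pluripotent cells. ParE thus stood above each other type in both samples, and these cells held 82.3% of all Lama1 UMIs with BMP4 and 39.6% without. All intervals cover counting error only.

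Lamb1 and Lamc1 had their highest level in ParE as well, at 196 and 100.1 CPM with BMP4, and between 35.2 and 48.2 CPM for Lamb1 and between 27.2 and 62.5 CPM for Lamc1 in the other types. Without BMP4 their ParE levels were 197 and 149.7 CPM. Col4a1 was at 1171 CPM in ParE (1163 to 1180), 626 CPM in endothelial cells, 182 CPM in the Intermediate state and 148 CPM in Placenta-like cells with BMP4. Col4a2 had the same order at 506, 316, 106 and 104 CPM. Endothelial cells were thus the second type for both collagen chains, and not for Lamb1.

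The remaining genes differed in where they were found with BMP4. Sparc was at 2239 CPM in ParE and at 1823 CPM in the Intermediate state with BMP4, which as the larger population held 63.7% of its UMIs. Nid1 was lowest in ParE, at 14.5 CPM (13.6 to 15.5) against 34.8 CPM in endothelial cells and 84.3 CPM in the Intermediate state, and ParE held 5.48% of its UMIs. Nid2 was highest in ParE, at 52.6 CPM against 14.1 to 25.4 CPM elsewhere. Hspg2 lay between 52.3 and 57.6 CPM in all 4 types, and Plat between 3.55 and 9.11 CPM. Without BMP4 ParE stood above all other cells for Sparc (1924 against 149 CPM), Hspg2 (126 against 26.3 CPM) and Plat (13.8 against 3.69 CPM, from 26 UMIs in ParE), and Nid2 was at 36.5 CPM in ParE and 37.5 CPM in pluripotent cells.

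**Figure D2:**
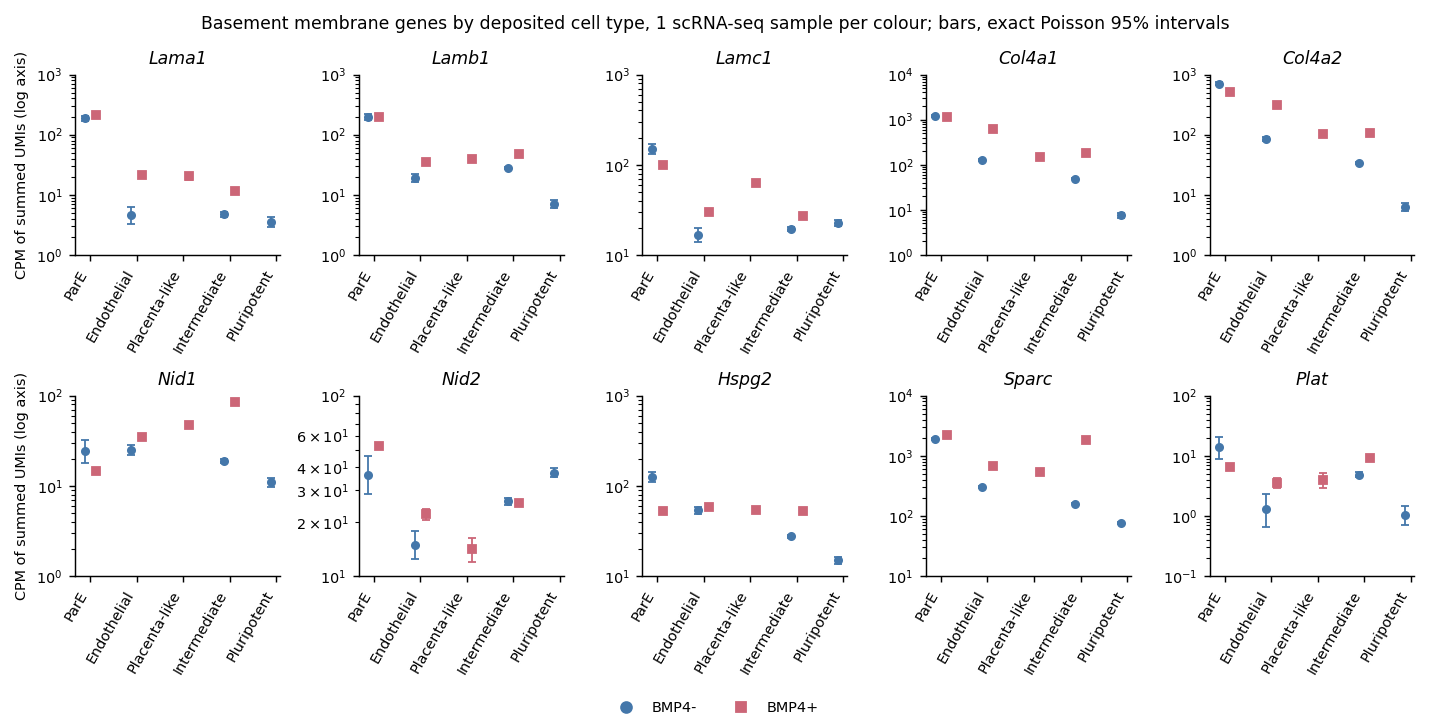
CPM of summed UMIs (log axis) of the 10 genes in each deposited cell type of the JGES samples at day 7 with and without BMP4, with exact Poisson 95% intervals. Lama1, Lamb1, Lamc1, Col4a1 and Col4a2 are highest in ParE in both samples, and Nid1 is lowest in ParE with BMP4.

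Against all cells but ParE, 6 of the 9 genes with at least 10 CPM in either group were at least 2-fold higher in ParE with BMP4, beside 9.26% of all genes tested, and 1 was lower, beside 12.1%. The log2 ratios were 3.97 for Lama1, 2.203 for Col4a1, 2.11 for Lamb1, 1.84 for Col4a2, 1.76 for Lamc1, 1.12 for Nid2, 0.53 for Sparc, −0.03 for Hspg2 and −2.35 for Nid1, and Plat was below 10 CPM in both groups. In the BMP4- sample 8 of 10 were higher, beside 10.1% of genes, all but Nid1 (0.50) and Nid2 (0.38), and none was lower, beside 7.46%. Lama1 and Plat passed the minimum of 10 CPM there through ParE alone, so that they had to be higher in ParE. The medians of the set were 1.76 and 3.02, against 0.16 and 0.05 for all genes.

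Against endothelial cells, the other type with high collagen IV, 5 of 9 were higher in ParE with BMP4, beside 8.59% of genes, and Nid1 (−1.26) was lower, beside 6.74%. Lama1 (3.31), Lamb1 (2.48), Lamc1 (1.75), Sparc (1.74) and Nid2 (1.26) made up the 5, and Col4a1 (0.90) and Col4a2 (0.68) were under the threshold.

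Shares of cells with a UMI gave the same order for Lama1 after each cell had been thinned to 4000 UMIs. With BMP4 a Lama1 UMI remained in 49.2% of ParE cells (95% Clopper-Pearson interval of 47.1 to 51.2), 7.85% of endothelial cells and 4.11% of Intermediate cells, and the unthinned shares were 91.7%, 30.01% and 16.97% at medians of 23772.5, 21763 and 19594 UMIs. Without BMP4 the thinned share was 45.8% in ParE (37.4 to 54.3) and 1.04% in pluripotent cells. Col4a1 was found in 94.1% and 97.2% of ParE cells with and without BMP4, Nid1 in 4.85% and 14.1%. No type of the BMP4+ sample is sure to lack Lama1, and the share that free RNA gives was not measured, so that the low shares outside ParE, and that of Nid1 in ParE, are not read as expression.

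Within ParE the levels with and without BMP4 were nearest to each other for 4 genes. Lama1 was at 213 and 186 CPM, Lamb1 at 196 and 197 CPM, Col4a1 at 1171 and 1193 CPM and Sparc at 2239 and 1924 CPM. Between these and the threshold lay Lamc1 at 100.1 and 149.7 CPM, Col4a2 at 506 and 705 CPM, Nid1 at 14.5 and 24.3 CPM and Nid2 at 52.6 and 36.5 CPM, with counting intervals that did not overlap, as was also so for Lama1 and Sparc. Hspg2 (52.3 and 126 CPM, log2 ratio of −1.27) and Plat (6.54 and 13.8 CPM, −1.07) were lower with BMP4, where 4.23% of all genes were lower, and none of the 10 was higher, where 27.8% were. Plat passed the minimum of 10 CPM through the BMP4- cells alone and could be called lower only. The median of the set was −0.25, that of all genes 0.58. Within ParE 5 of 5 tested pluripotency markers were lower with BMP4, 6 of 8 visceral endoderm and 3 of 4 fibroblast markers were higher, and Dppa5a, a pluripotency marker, was at 16.6 CPM with and 809 CPM without BMP4, and their part in Hspg2 and Plat was not tested. The BMP4- value rests on 142 cells with 1890270 UMIs.

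In the Intermediate state 5 of 9 tested genes were higher with BMP4, beside 29.9% of all genes, and none was lower, beside 5.03%, with Sparc at 1823 against 159 CPM and Nid1 at 84.3 against 18.6 CPM, and Nid2 was at 25.4 and 25.9 CPM. In that state 7 of 10 tested fibroblast markers were higher as well and 1 was lower. Of 9 tested primitive and parietal endoderm markers 5 were higher and 1 lower. Both of the 2 tested visceral endoderm markers were higher, and all 3 tested pluripotency markers were lower. The part of these markers' cells, or of RNA from other cells, in these values was not tested. In endothelial cells 4 of 9 were higher, beside 26.1%, and none was lower, beside 3.64%, with Col4a1 at 626 against 128 CPM and Lama1 at 21.6 against 4.63 CPM. In these cells 5 of 9 tested primitive and parietal endoderm markers and 4 of 5 tested fibroblast markers were higher too and none lower, and the part of RNA from other cells was not tested. Over all cells of a sample 7 of 9 were higher with BMP4, beside 30.9% of genes, with a median of 1.80 against 0.61 for all genes, and none was lower, beside 4.52%. The 2 exceptions were Hspg2 (0.94) and Nid2 (0.13). Over all cells 14 of 14 tested primitive and parietal endoderm markers and 5 of 5 visceral endoderm markers were higher with BMP4. Of 10 tested fibroblast markers 6 were higher and 1 lower, and all 8 pluripotency markers were lower. ParE made up 20.9% of the cells with and 1.64% without BMP4. The part of these cell types in the 7 calls was not tested. Lama1 passed the minimum of 10 CPM through the BMP4+ cells alone in the Intermediate state (11.4 against 4.73 CPM), in endothelial cells and over all cells (59.2 against 7.23 CPM), and could be called higher only.

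The bulk libraries and the scRNA-seq samples of day 7 differed in the order of the cultures for Lama1, Lamc1 and Nid2. For Lama1 bulk RNA-seq gave 30.1 FPKM without and 23.1 FPKM with BMP4, and the sum over all cells gave 7.23 CPM without and 59.2 CPM with BMP4. Lamc1 was at 88.2 and 83.2 FPKM and at 22.1 and 45.7 CPM without and with BMP4, and Nid2 at 108.7 and 61.6 FPKM and at 28.1 and 30.7 CPM. The list of primitive and parietal endoderm markers was higher with BMP4 in both assays. Its summed level in bulk was 189 FPKM without and 666 FPKM with BMP4. Over all cells 14 of 14 tested markers were called higher with BMP4. From this list 3 genes are given, named after their values were seen. Gata4 was higher with BMP4 in both assays, at 10.3 and 20.7 FPKM and at 1.14 and 19.1 CPM. Gata6 (12.1 and 7.00 FPKM, 5.64 and 25.8 CPM) and Foxa2 (10.8 and 8.29 FPKM, 5.93 and 16.4 CPM) differed in order between the assays as Lama1 did. Whether the same cultures were used was not given in the sources used here, and the cause of the difference was not tested.

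Genes that serve the set were read in the same cells. In ParE with BMP4, 5 of 20 genes of collagen folding and export were higher than in all other cells and none was lower, among them Plod2, a lysyl hydroxylase (123 against 49.9 CPM), and Colgalt1, a collagen galactosyltransferase (127 against 58.4 CPM). Without BMP4 15 of 20 were higher. Of 10 tested plasminogen system and protease genes 8 were lower in ParE with BMP4, such as the metalloprotease Mmp2 (9.12 against 68.2 CPM) and the inhibitor Timp2 (14.1 against 131 CPM). Without BMP4 3 of 7 were lower and 1 was higher. Of 9 tested other basement membrane components 2 were higher with BMP4, one of them Egflam, which encodes pikachurin (11.04 against 0.54 CPM), and 5 lower, such as Col18a1 (28.9 against 155 CPM). Without BMP4 3 of 7 were higher and 2 lower, with Egflam at 10.6 against 1.39 CPM. In both samples Egflam passed the minimum of 10 CPM through ParE alone and could be called higher only. With BMP4 Lama5, the rival alpha chain, was at 15.3 CPM in ParE and 34.5 CPM in the other cells, so that within ParE Lama1 exceeded it in UMIs, which are not per length. All 9 tested fibroblast markers were lower in ParE with BMP4, and 6 of 7 were without.

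The table of 8 libraries compared 4 factor sets at day 7. Col4a1 was at 54.9 FPKM in JGE, 41.4 in JGEO, 103.6 in JGES and 864 FPKM in JGESO without BMP4, and at 73.3, 48.4, 202 and 476 FPKM with BMP4. Col4a2 followed at 58.4, 51.2, 79.3 and 644 FPKM without and 75.4, 55.9, 152 and 391 FPKM with BMP4. JGESO thus stood far above the other sets for both chains, and JGES came next.

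Lama1 was at 9.26 FPKM in JGE, 19.3 in JGEO, 29.3 in JGES and 83.5 FPKM in JGESO without BMP4, and at 7.83, 26.5, 22.6 and 54.6 FPKM with BMP4. Lamb1 lay between 42.4 and 108 FPKM and Lamc1 between 48.7 and 125 FPKM over the 8 libraries, with the highest value of both in JGESO without BMP4. Sparc was at 745, 528, 242 and 1233 FPKM without BMP4 in the same order of sets and at 479.5, 568, 787 and 1227 FPKM with BMP4. JGES without BMP4 was therefore the lowest library for Sparc and JGESO the highest with or without BMP4.

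Nid2 was also highest in JGESO, at 172 FPKM without and 143 FPKM with BMP4, against 48.0 to 106 FPKM in the other 6 libraries. Nid1 was not, at 25.8 FPKM without and 55.6 FPKM with BMP4 in JGESO, against 123 FPKM in JGES with BMP4. Hspg2 ranged only from 54.4 to 115 FPKM. Plat had its highest value in JGE without BMP4, at 28.8 FPKM, and its lowest in JGEO with BMP4, at 4.46 FPKM.

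**Figure D3:**
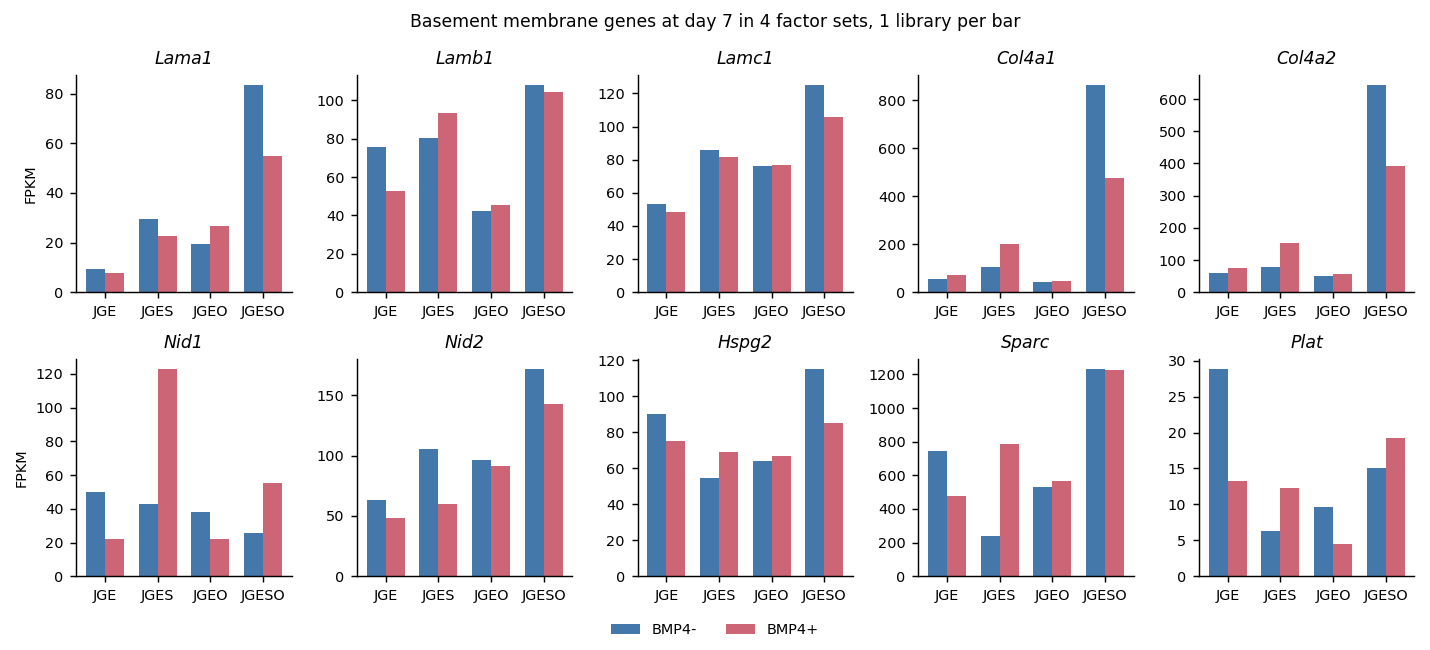
FPKM (linear axis) of the 10 genes in the JGE, JGES, JGEO and JGESO libraries of day 7 without and with BMP4, with 1 library per bar. JGESO has the highest Lama1, Col4a1, Col4a2, Nid2 and Sparc, and Nid1 is highest in JGES with BMP4.

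JGESO and JGEO differ by Sall4. In JGESO against JGEO without BMP4, Col4a1 (4.35), Col4a2 (3.63), Lama1 (2.06), Lamb1 (1.33) and Sparc (1.22) were higher, 5 of 10 beside 7.48% of all genes, and none was lower, beside 20.7%, with Nid1 at 25.8 FPKM in JGESO and 38.1 FPKM in JGEO. With BMP4 7 of 10 were higher, beside 7.77%, namely these 5 (3.27, 2.78, 1.01, 1.17 and 1.11) with Plat (1.89) and Nid1 (1.29), and none was lower, beside 21.2%. The medians of the set were 1.03 and 1.14, and those of all genes −0.26 and −0.29. Cell type markers, named after their values were seen, also differed with BMP4. In JGESO and JGEO Col1a1 was at 342 and 82.3 FPKM, Twist1 at 231 and 63.9 FPKM and Gata4 at 57.2 and 1.41 FPKM. The fibroblast marker Col3a1 went the other way, at 48.7 and 87.4 FPKM. The part of these cell types in the 7 genes was not tested.

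JGES and JGE differ by Sall4 as well. The JGES libraries also belong to the JGES time course, unlike those of JGE, JGEO and JGESO. The part of this in contrasts with JGES was not tested. In JGES without BMP4 Lama1 was higher (1.56), beside 20.1% of genes, and Plat (−2.04) and Sparc (−1.62) were lower, beside 16.9%. In the same contrast 11 of 12 fibroblast markers were lower and none higher (sums of 878 FPKM in JGE and 118 FPKM in JGES), with Col1a1 at 293 and 19.7 FPKM, and their part in the lower Sparc and Plat was not tested. With BMP4 Nid1 (2.44), Col4a1 (1.45), Lama1 (1.42) and Col4a2 (1.00) were higher, 4 of 10 beside 12.1%, and none was lower, beside 11.1%. In that contrast 10 of 16 primitive and parietal endoderm markers were higher and 2 lower (216 FPKM in JGE and 651 FPKM in JGES, summed), 3 of 12 fibroblast markers were higher and 3 lower (448 and 1053 FPKM), and their part in the 4 genes was not tested. Whether the effect of Sall4 differed between JGE and JGEO was not tested.

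Adding Oct4 to JGES raised 6 of 10 genes without BMP4, beside 16.8% of all genes, and lowered none, beside 32.7%. They were Col4a1 (3.05), Col4a2 (3.005), Sparc (2.34), Lama1 (1.48), Plat (1.15) and Hspg2 (1.07). With BMP4 Col4a2 (1.35), Lama1 (1.24), Col4a1 (1.23) and Nid2 (1.23) were higher, beside 14.0%, and Nid1 (−1.13) was lower, beside 24.9%. Cell type markers moved in the same contrasts. Without BMP4 13 of 16 primitive and parietal endoderm markers were higher in JGESO and 1 lower (summed level 775 against 184 FPKM), 8 of 11 tested fibroblast markers were higher and none lower (780 against 118 FPKM), and of 8 pluripotency markers none was higher and 4 were lower (482 against 972 FPKM). With BMP4 7 of 16 endoderm markers were higher and 1 lower, 5 of 12 fibroblast markers were higher and 2 lower, and 6 of 8 pluripotency markers were higher and none lower. Their part in the levels of the set was not tested. Adding Oct4 to JGE raised none without BMP4, beside 10.2%, and lowered Plat (−1.49), beside 11.9%. With BMP4 it raised Lama1 (1.64), beside 7.54%, and lowered Plat (−1.38), beside 4.29%. Markers, named after their values were seen, moved from JGE to JGEO too. Without BMP4 Postn went from 23.0 to 3.29 FPKM, Twist2 from 12.5 to 30.2 FPKM and Dppa5a from 0 to 164 FPKM. With BMP4 they went from 17.4 to 4.95, from 10.3 to 17.8 and from 0 to 322 FPKM. Their part in Plat and Lama1 was not tested.

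BMP4 was also compared within the other factor sets. In JGE Nid1 (−1.16) and Plat (−1.07) were lower with BMP4, beside 4.78% of genes, and none was higher, beside 4.28%. Of the 12 fibroblast markers 3 were lower with BMP4 in JGE and none higher (sums of 878 and 448 FPKM), and of the 8 endothelial markers 4 were higher and none lower (sums of 28.6 and 142 FPKM), and their part in the lower Nid1 and Plat was not tested. In JGEO none was called, beside 2.26% higher and 1.95% lower. In JGESO Nid1 (1.08) was higher, beside 5.29%, none was lower, beside 3.52%, and Col4a1 (−0.86) and Col4a2 (−0.72) lay below the threshold.

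The alpha chains separated the sets too. Lama1 made up 11.3% of the summed alpha chain level in JGE, 23.8% in JGEO, 30.6% in JGES and 53.1% in JGESO without BMP4, and 8.98%, 25.4%, 22.7% and 43.1% with BMP4. Lama4 made up 37.1% and 35.5% in JGEO without and with BMP4, and 1.65% and 3.75% in JGESO. JGESO without BMP4 was the only 1 of the 8 libraries in which Lama1 exceeded Lama5 (83.5 and 70.9 FPKM).

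The genes around the set behaved unevenly in JGESO. Against JGEO without BMP4, 7 of 19 collagen folding and export genes were higher and 1 lower, with the collagen chaperone Serpinh1 at 806 against 330.0 FPKM, P4ha2 at 31.0 against 3.42 FPKM and Sec23a, a coat protein of export vesicles, at 2.86 against 9.14 FPKM. The laminin and collagen receptor subunit Itgb1 was at 9.56 FPKM in JGESO and 62.1 FPKM in JGEO, and at 185 and 67.2 FPKM in JGE and JGES, while Bcam, a laminin receptor, was at 31.3 against 9.68 FPKM in JGESO and JGEO. Of 15 primitive and parietal endoderm markers tested 12 were higher in JGESO and 2 lower (summed level of the list 775 against 122 FPKM), and Gata4 was at 75.2 against 0.34 FPKM. Of 8 visceral endoderm markers tested all were higher, but each passed the minimum of 1 FPKM through JGESO alone and could be called higher only (sums of the list of 221 and 2.53 FPKM). Of 12 fibroblast markers 2 were higher and 1 lower (sums of 780 and 578 FPKM). The part of a larger share of endoderm cells in the levels of the set was not tested.

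The comparison of SALL4-delN12 with SALL4-WT asks how the set behaves when SALL4 lacks the residues that recruit NuRD. Lama1 answered late and strongly. It was at 1.304, 1.65, 1.84 and 3.38 FPKM at days 1, 5, 9 and 11 with SALL4-WT, and at 1.31, 2.35, 19.0 and 50.2 FPKM with SALL4-delN12. The forms were alike at day 1 (a difference of 0.01), and Lama1 was higher with SALL4-delN12 by 2.81 at day 9 and by 3.55 at day 11.

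Lamb1 and Lamc1 reached 94.0 and 119 FPKM at day 11 with SALL4-delN12, against 58.0 and 87.3 FPKM with SALL4-WT, which is 0.69 and 0.44 and was not called. From day 1 to day 11 with SALL4-delN12 Lamb1 rose by 1.38 from 35.6 FPKM. Lama1 made up 4.52%, 4.35%, 25.04% and 52.8% of the alpha chain level over the 4 days with SALL4-delN12 and between 2.99% and 5.40% with SALL4-WT. Lama4 made up between 32.9% and 39.1% with SALL4-WT and between 6.93% and 13.8% with SALL4-delN12.

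The collagen chains dipped with SALL4-delN12 before they recovered. Col4a1 was at 105, 39.6, 87.4 and 181 FPKM with SALL4-delN12 and at 104, 140.2, 198 and 172 FPKM with SALL4-WT. Col4a2 was at 136, 55.9, 86.4 and 172 FPKM against 129, 162, 224 and 209.9 FPKM. Both were lower with SALL4-delN12 at day 5 (−1.80 and −1.52) and at day 9 (−1.17 and −1.37), and not at day 11 (0.07 and −0.29).

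Nid1 was lower with SALL4-delN12 from the first day. It was at 225, 191, 316 and 133 FPKM with SALL4-WT and at 46.0, 74.1, 110.0 and 50.7 FPKM with SALL4-delN12. The differences were −2.26, −1.36, −1.51 and −1.37. Nid2 was low in both, between 10.7 and 20.0 FPKM, and Hspg2 lay between 38.9 and 47.7 FPKM with SALL4-WT and went from 59.1 to 28.4 FPKM with SALL4-delN12 (−1.03).

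Sparc was high in all 8 libraries, from 1196 to 1537 FPKM with SALL4-WT and from 1464 to 1808 FPKM with SALL4-delN12, with differences of 0.22 to 0.38. Plat was at 42.7, 28.6, 57.3 and 36.6 FPKM with SALL4-WT and at 22.1, 39.7, 72.5 and 51.6 FPKM with SALL4-delN12, and rose by 1.19 between days 1 and 11 with the latter. Plat was thus higher in these 8 libraries than in any of the 9 JGES libraries.

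**Figure D4:**
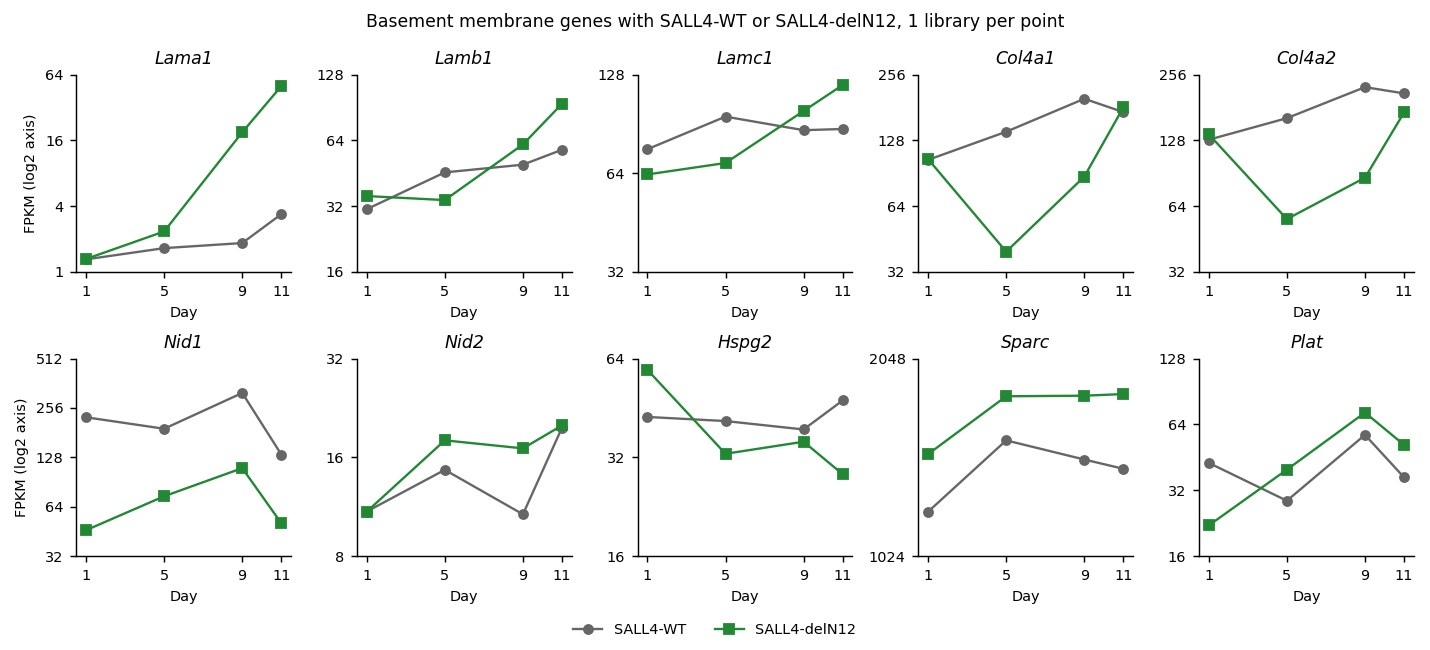
FPKM (log axis) of the 10 genes at days 1, 5, 9 and 11 after SALL4-WT or SALL4-delN12, with 1 library per point. Lama1 separates from day 9, Col4a1 and Col4a2 dip at day 5 with SALL4-delN12, and Nid1 is lower with SALL4-delN12 at each day.

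Counted over the set, 1 of 10 was lower with SALL4-delN12 at day 1, beside 5.63% of all genes, 3 at day 5, beside 5.19%, 3 at day 9, beside 5.75%, and 1 at day 11, beside 6.58%. Lama1 alone was higher, at day 9, beside 6.09% of genes, and at day 11, beside 6.55%, and none was higher at days 1 and 5, beside 4.18% and 4.67%. The median of the set was 0.01, −0.37, 0.25 and 0.22, and that of all genes between −0.03 and 0.03. Within SALL4-WT none of the 10 was called between days 1 and 11, beside 11.5% of genes higher and 8.76% lower. Within SALL4-delN12 Lama1 (4.47), Lamb1 and Plat rose, beside 10.4%, and Hspg2 fell (−1.03), beside 4.61%. The call of Hspg2 was lost after rescaling to the median ratio (−0.996).

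Another basement membrane component and cell type markers moved in the same libraries. Col18a1, a proteoglycan collagen of basement membranes, was at 273 FPKM with SALL4-delN12 and 67.5 FPKM with SALL4-WT at day 5. At day 11, 10 of 16 primitive and parietal endoderm markers were higher with SALL4-delN12 and none lower, with Gata4 at 29.3 against 1.51 FPKM and Sox17 at 16.2 against 0.22 FPKM. The summed level of this list was 722, 732, 818 and 921 FPKM with SALL4-delN12 and 165, 181, 242 and 230 FPKM with SALL4-WT. This sum thus stood apart from day 1, when Lama1 was alike in both forms. The list includes the keratin genes Krt8, Krt18 and Krt19, and the part of single genes in the sum at day 1 was not tested. Of 6 visceral endoderm markers tested 5 were higher (26.5 against 3.22 FPKM in sum for the list). Of the 12 fibroblast markers 5 were lower and none higher at day 11, and 6 were lower and 2 higher at day 5, with Postn, a fibroblast matrix protein, lowest relative to SALL4-WT (−3.31). The summed level of the fibroblast list was 2612, 2305, 2337 and 2033 FPKM with SALL4-delN12 and 1290, 2097, 2055 and 2259 FPKM with SALL4-WT, which was higher with SALL4-delN12 at days 1, 5 and 9. The part of fibroblasts in the lower Nid1, Col4a1 and Col4a2 was not tested. Of 19 collagen folding and export genes tested, P4ha2 alone was called at day 11 (30.7 against 10.1 FPKM).

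Peaks in ATAC-seq, which marks open chromatin, and in CUT&Tag were read at each gene on the mm10 build. Lama1 lies at chr17:67697259-67822647 on the plus strand. Col4a1, at chr8:11198423-11312826 on the minus strand, and Col4a2, at chr8:11312805-11449287 on the plus strand, start head to head and share a promoter. The score of a peak is the one MACS gives, the negative log10 of its p-value times 10, with a lowest value of 50 in the lists.

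The promoters of most of the set were already open in MEFs. A peak within 2 kb of the start was present for 9 of the 10 genes in MEFs (66.2% of 21911 protein-coding genes), all but Sparc, and for 7 to 9 of them in the 8 libraries with SALL4 (57.9% to 64.4%). Each gene was given 1 start. Sparc did have ATAC peaks in MEFs within 10 kb of its gene body, the highest with a score of 3197, so that its missing promoter peak holds for the start used only. At a score of at least 100 the counts were 9 in MEFs (61.4%) and 5 to 8 in the libraries with SALL4 (50.6% to 59.1%). Lama1, at 0.56 FPKM in the JGES library of day 0, had a promoter peak with a score of 1037 in MEFs, and this peak was present in every library (209 to 834 with SALL4-WT and 247 to 765 with SALL4-delN12). The peak of Lamc1 was among the highest of the set, with 1439 in MEFs.

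The shared promoter of Col4a1 and Col4a2 had no listed peak in 1 library. Its score was 634 in MEFs, 79.9, 320, 334 and 289 at days 1, 5, 9 and 11 with SALL4-WT, and 92.2, no peak, 55.3 and 133 with SALL4-delN12. Day 5 with SALL4-delN12 was thus both the library without a listed peak and the one with the lowest Col4a1 and Col4a2 of the 8. A peak with a score under 50 would not be listed, so that a missing peak is not read as a closed site. The lists held 125470 peaks in MEFs, and 98422 with SALL4-WT and 89524 with SALL4-delN12 at day 5. The part of this in the scores was not tested. Nid1 had a promoter peak in MEFs (469), in no SALL4-WT library and at days 5 and 9 with SALL4-delN12 (69.0 and 108).

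H3K27ac, a mark of active promoters and enhancers, was listed at the promoters of 7 of the 10 genes at day 6 with SALL4-WT, beside 47.5% of genes, and of 9 with SALL4-delN12, beside 56.8%. The lists held 19841 and 45599 peaks, a difference that moves with this count and whose part in it was not tested. At a score of at least 100 the count was 4 with SALL4-WT, beside 38.0% of genes, and 9 with SALL4-delN12, beside 51.0%. Lamb1 (score of 166) and Nid1 (144) had the mark with SALL4-delN12 only, as did 10.5% of genes, and Sparc had none in either at the start used. Within 10 kb of its gene body Sparc had H3K27ac peaks with both forms, the highest at 231 with SALL4-WT and 349 with SALL4-delN12. Scores were higher with SALL4-delN12 at each of the 7 shared promoters, such as Lamc1 (798 against 349) and Lama1 (224 against 115), as they were at 97.2% of the 10146 promoters with a peak in both lists, and Col4a1 and Col4a2 share 1 of these promoters. A SALL4 peak was present at 7 of the 10 promoters with SALL4-WT, beside 51.5% of genes, and at 5 with SALL4-delN12, beside 38.5%, and Lama1, Lamc1, Nid2 and Plat had one with both forms, 4 of 10 beside 35.3% of genes. At a score of at least 100 a SALL4 peak was listed at 6 promoters with SALL4-WT, beside 38.6% of genes, and at 3 with SALL4-delN12, beside 25.9%. The shared promoter of Col4a1 and Col4a2 had no SALL4 peak with either form.

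Of 15 open sites in and around Lama1, 2 inside the gene are described, chosen after their values were seen. The choice required no MEF peak and a peak at each of days 5, 9 and 11 with SALL4-delN12. The presence of those SALL4-delN12 peaks was thus fixed by the choice and is a description only. The first, at chr17:67711293-67711632 in intron 1 and 14.2 kb from the start, had an ATAC peak at days 5, 9 and 11 with SALL4-delN12 (120, 82.4 and 59.4) and at no day with SALL4-WT. It had a SALL4 peak with both forms (56.1 with SALL4-WT and 123 with SALL4-delN12) and an H3K27ac peak with SALL4-delN12 only (77.8). The second, at chr17:67731767-67732386 in intron 3 and 34.8 kb from the start, was open at all 4 days of both forms, at 80.2, 82.8, 57.0 and 168 with SALL4-WT and at 83.9, 223, 185 and 110 with SALL4-delN12. It had a SALL4 peak with both forms (58.6 and 237) and an H3K27ac peak with SALL4-delN12 only (122).

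**Figure D5:**
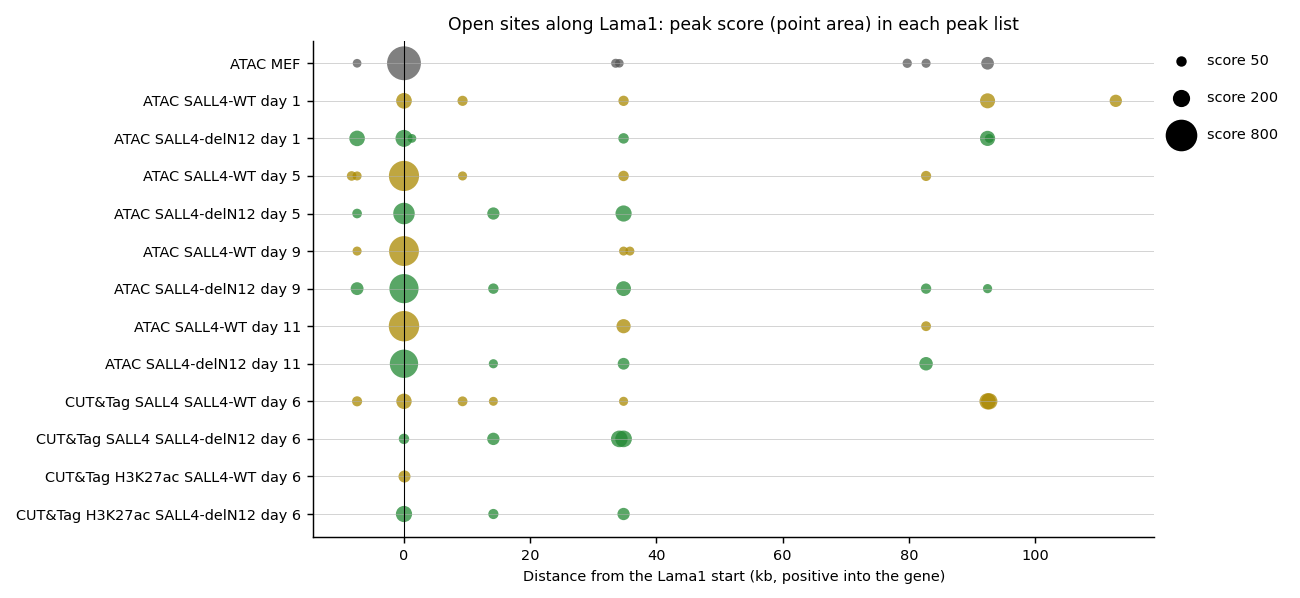
Open sites across Lama1 by distance from its start (kb) in MEFs (grey), SALL4-WT (gold) and SALL4-delN12 (green), with 1 row per ATAC-seq or CUT&Tag library, point area proportional to the MACS score, and a broad CUT&Tag peak drawn at each open site that it overlaps. The promoter is open in every row of ATAC-seq, and the site at 14.2 kb is open in 3 SALL4-delN12 rows and in no SALL4-WT row. Its peaks in these 3 rows were a condition of its choice.

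These sites carry the sequences below, which are shown because Lama1 is the gene of the set that differs most between the forms. They are 300 bases around the centre of the ATAC peak with the highest score, read on the plus strand of GRCm38. Capitals mark ACAAT, the core of the SOX motif, in the first and TGACTCA, a match to the AP-1 motif TGANTCA, in the second.

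Lama1 site 1, chr17:67711331-67711630: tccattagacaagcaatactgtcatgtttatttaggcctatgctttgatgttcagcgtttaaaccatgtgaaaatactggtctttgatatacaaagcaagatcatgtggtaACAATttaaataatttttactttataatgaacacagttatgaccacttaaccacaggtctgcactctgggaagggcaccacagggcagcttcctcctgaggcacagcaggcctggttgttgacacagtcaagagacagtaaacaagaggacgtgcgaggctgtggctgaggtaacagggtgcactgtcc
Lama1 site 2, chr17:67732027-67732326: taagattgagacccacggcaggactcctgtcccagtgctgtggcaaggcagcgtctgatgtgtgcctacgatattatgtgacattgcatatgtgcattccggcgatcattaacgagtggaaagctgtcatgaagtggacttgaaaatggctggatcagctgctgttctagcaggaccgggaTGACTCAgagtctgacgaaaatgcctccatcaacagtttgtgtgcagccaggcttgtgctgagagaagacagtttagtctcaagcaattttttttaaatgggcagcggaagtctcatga

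Motifs were searched as exact letters on both strands. GATAA, the core of the GATA motif, was in neither window. ACAAT was found in 33.5% and TGANTCA in 26.1% of 78487 windows of 300 bases around the ATAC peaks of day 11 with SALL4-delN12, and GATAA in 27.5%. A match describes the letters only.

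The promoters of the genes whose H3K27ac peak was present with SALL4-delN12 only are shown next, as RefSeq gives them on GRCm38.p6 for up to 250 bases before the start, together with the 22 bases that lie between the starts of Col4a1 and Col4a2. Capitals mark GGGCGG, the GC box, or its reverse complement CCGCCC.

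Lamb1 promoter, chr12:31265043-31265233: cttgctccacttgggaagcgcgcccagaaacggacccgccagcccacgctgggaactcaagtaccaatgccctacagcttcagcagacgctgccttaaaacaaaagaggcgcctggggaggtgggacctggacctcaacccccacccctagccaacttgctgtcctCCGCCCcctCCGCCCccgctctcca
Nid1 promoter, chr13:13437352-13437550: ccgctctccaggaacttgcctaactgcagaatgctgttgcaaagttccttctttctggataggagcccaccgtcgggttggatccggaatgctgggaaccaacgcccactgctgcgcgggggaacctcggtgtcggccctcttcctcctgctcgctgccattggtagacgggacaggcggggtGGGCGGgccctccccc
Col4a1 and Col4a2 between the starts, chr8:11312805-11312826: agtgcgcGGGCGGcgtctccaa

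Of the 10 genes 6 matched the promoter table, with windows of 250 bases before to 50 after the start. GGGCGG was in 5 of these 6, all but Sparc, and in 35.7% of 32851 promoters. GATAA was in none of the 6 and in 25.4% of all promoters. The same held for ACAAT, found in 31.0% of all promoters, and for the AP-1 motif above, found in 7.81%.

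Over the 17 libraries the levels on the log2 scale of Col4a1 and Col4a2 had a Pearson correlation of 0.91, the highest between 2 genes of the set. Sparc and Plat had 0.83 and Lama1 and Lamb1 0.71, while Nid1 and Nid2 had −0.71 and Nid2 and Plat −0.90. The libraries are 2 courses of JGES that share day 0 and 2 courses of SALL4, so that they are not independent points. The genes of the whole table most like Lama1 were Folr1, Ovol2 and Ramp2 (0.948, 0.947 and 0.946), those most like Lamb1 were F2, Nxf7 and Gata4 (0.856, 0.853 and 0.849), and the gene most like Sparc was Col1a1 (0.967). For Nid1 they were Cast, Shc1 and Tmem30a (0.929, 0.915 and 0.909), and for Nid2 Vps13b, Wiz and Sp2 (0.978, 0.977 and 0.974).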

How the data were processed

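Bulk RNA-seq, scRNA-seq, ATAC-seq and CUT&Tag files were used. The authors deposited FPKM values per gene, scRNA-seq UMI counts per gene and cell with cell type labels, and peak lists with the MACS score per peak, whose CUT&Tag lists were called on merged replicates. The submitters' processing notes name Trim Galore 0.6.4, HISAT2 2.2.1, StringTie 2.2.1, Bowtie2 2.4.5, SAMtools 1.16.1, MACS 1.4.2, STAR and Scanpy, and the mm10 build. FPKM keeps no depth, so that the depth of the bulk libraries is unknown, and the scRNA-seq samples held 269277477 UMIs with and 123159447 UMIs without BMP4.

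The members and the gene lists were chosen with earlier results of these data known. Differences were taken on log2(FPKM + 1) and called at 1 or more among genes with at least 1 FPKM in either library. UMIs were summed per sample and deposited cell type and given as CPM with exact Poisson 95% intervals. Ratios were called at 2-fold with at least 10 CPM in either group, with sums under 3 UMIs set to 3, and shares of cells were also taken after thinning each cell to 4000 UMIs. Doublets were not called again. Peaks within 2 kb of a start in GENCODE M21 were assigned to the promoter, and sites within 10 kb of the gene body to the gene. From each other list the 4 genes with the largest absolute difference and at least 5 FPKM or 10 CPM could be named, besides chains of the same complex. Of 30769 columns with values per cell or library, 10749 matched no sample analysed here and were not used. Python 3.11.15, pandas 2.3.3, NumPy 2.4.6, SciPy 1.17.1 and Matplotlib 3.10.9 were used. The calling of bulk differences was tested on simulated data, and the other steps were not. Another pseudocount, scaling, filter, bulk table, UMI cut, promoter width and peak score were tried. Some genes of the other lists are not reported here.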

Additional observations from a re-analysis of the deposited data

Results flagged for a closer look

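Nid1, the major nidogen, differed in direction between factor sets under the same contrast. Its difference between BMP4+ and BMP4- at day 7 was −1.16 in JGE, and it was 1.51 in JGES and 1.08 in JGESO. Sparc moved in opposite directions when Sall4 was added without BMP4, by −1.62 from JGE to JGES and by 1.22 from JGEO to JGESO. Plat did so when Oct4 was added without BMP4, by −1.49 from JGE to JGEO and by 1.15 from JGES to JGESO. With 1 library per condition these differences between contrasts were not tested. The JGES libraries also belong to the JGES time course, unlike those of the other factor sets.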

How the results depend on the processing

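No paired analysis was possible because each group has 1 library at each day, and the days are conditions and not replicates. Of 590 values of single members under an alternative, 574 kept their side of the threshold, and no called direction was reversed. Values under the threshold could change sign and were counted as kept. Col4a1 within ParE did so without the cells of the highest UMIs (1209 CPM with and 1147 CPM without BMP4). A count was taken as kept if it moved by a factor of at most 1.5. This held for 112 of 118 counts of members called, 66 of 93 counts of all genes called and 22 of 26 counts of promoters with a peak. None of the 6 shares of cells thinned to 2000 UMIs stayed within its interval. With a pseudocount of 0.1, 1 member was called higher from day 1 to 11 with SALL4-WT, 1 lower with BMP4 in JGEO and 1 higher from JGE to JGEO without BMP4. After rescaling libraries to their median ratio, 4 members were higher with BMP4 at day 7 of JGES, 0 were lower from day 1 to 11 with SALL4-delN12 (the call of Hspg2 was lost), and 2 were higher from JGE to JGES without BMP4. This scaling moved the median of all genes by 0.17 and 0.11 between BMP4+ and BMP4- at days 5 and 7 of JGES, and the share of higher calls from 40.0% to 51.8% at day 5, from 52.1% to 63.9% from JGE to JGES with BMP4 and from 26.5% to 39.1% from JGEO to JGESO without BMP4. With a peak score of at least 100, members with a promoter peak numbered 5 and 5 for ATAC-seq of SALL4-WT and SALL4-delN12 at day 1, 3 for SALL4 with SALL4-delN12 and 4 for H3K27ac with SALL4-WT.

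With a filter of 5 FPKM the number of genes called was 583, 1183, 1931 and 2101 between BMP4+ and BMP4- at days 1, 3, 5 and 7 of JGES, 2926 and 2333 from day 0 to 7 without and with BMP4, 804, 858, 1058 and 1161 between the SALL4 forms at days 1, 5, 9 and 11, and 1239 from day 1 to 11 with SALL4-delN12. It was 838, 281 and 769 for BMP4 in JGE, JGEO and JGESO, 3920 and 2130 from JGE to JGES without and with BMP4, and 1027, 3912 and 2806 from JGE to JGEO, JGES to JGESO and JGEO to JGESO with BMP4. With a pseudocount of 0.1 it was 2106 for BMP4 at day 1 of JGES, 1922, 2074 and 2812 between the SALL4 forms at days 1, 5 and 11, 2321, 1340 and 2102 for BMP4 in JGE, JGEO and JGESO, and 2746 from JGE to JGEO with BMP4. The filter tests fewer genes, and the cause of the other differences was not tested.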
